A study of Mus musculus with 8 samples.

Results

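The genes described here are 36 genes of the MYC family, the nucleolus and polyamine synthesis, taken by symbol from the per-library expression tables of mouse hematopoietic stem cells. They were chosen by name and role, with earlier results of these data known. All 36 were found among the 33641 gene symbols of each table. Hematopoietic stem cells are the rare marrow cells that renew themselves and give rise to every blood lineage. The study sorted them from bone marrow of C57BL/6 mice of 4 genotypes and sequenced their messenger RNA, to ask how the polarity scaffold Scribble and the Hippo co-activators Yap1 and TAZ act in these cells.

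Each genotype had 2 libraries. The triple null is Scribble-/-;Taz-/-;Yap1-/-, the Scribble null is Scribble-/-, the Yap1 Taz null is Taz-/-;Yap1-/-, and the controls are wild type. All genotypes carried the Mx1-Cre transgene and received 6 intraperitoneal injections of polyI:C at 10 mg/kg, given every other day. PolyI:C mimics viral double-stranded RNA and induces interferon, which switches on the Mx1 promoter that drives Cre. The wild-type mice therefore had the same injections, and Cre acted in any interferon-responsive cell of the mouse, not in stem cells alone. Cells were collected 1 week after induction, and the labels give no age. The design text speaks of 4 independent samples with experimental replicates. The 2 libraries of a genotype may thus share an animal, and p-values may measure technical spread alone.

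MYC is a transcription factor that binds DNA as a dimer with MAX, most often at the sequence CACGTG, called an E-box. MXD proteins compete for MAX and repress through the same sites. Much of what MYC drives is the making of ribosomes. RNA polymerase I copies the ribosomal RNA genes in the nucleolus, small nucleolar ribonucleoproteins (snoRNPs) guide the chemical modification of that RNA, and processing factors cut it and fold it into the small and large subunits. Quiescent stem cells are known for a low rate of protein synthesis, and dividing ones for a higher rate.

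The promoters of the members were searched for the E-box, because it is the site a MYC and MAX dimer would use. RefSeq sequence of build GRCm38.p6, running from 250 bases before to 50 bases after each start site, was at hand for 29 of the 36 members, and not for Myc, Fbl, Rrp12, Bop1, Rrs1, Npm1 and Srm. CACGTG, which reads the same on both strands, stood in 8 of the 29 promoters (27.6%) and in 2187 of 27025 promoters of all genes (8.09%). The 27025 were not limited to the genes tested here, and the members were chosen for roles tied to MYC. The shares of these unlike sets describe them and are no test. Each of the 8 sites is given in the direction of its gene, with the E-box in capitals.
Mxd4: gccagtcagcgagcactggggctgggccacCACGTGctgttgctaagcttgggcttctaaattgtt
Nop2: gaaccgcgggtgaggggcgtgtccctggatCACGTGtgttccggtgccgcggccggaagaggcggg
Max: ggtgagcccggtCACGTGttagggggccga
Pes1: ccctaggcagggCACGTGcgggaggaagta
Wdr43: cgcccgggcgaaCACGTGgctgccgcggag
Tsr1: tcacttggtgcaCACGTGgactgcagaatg
Utp20: cggcactaactaCACGTGaggaaaa
Mybbp1a: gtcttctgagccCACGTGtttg
The first base of the E-box lay 219 bases before the start site in Mxd4, 60 before it in Nop2 and 3 before it in Max. In the other 5 it lay past the start, by 2 bases in Pes1, 17 in Wdr43, 24 in Tsr1, 37 in Utp20 and 40 in Mybbp1a. The windows printed are chr5:34187894-34187959 on the minus strand for Mxd4, chr6:125131793-125131858 on the plus strand for Nop2 and chr12:76962234-76962263 on the minus strand for Max. Those of Pes1, Wdr43, Tsr1 and Mybbp1a are chr11:3963965-3963994, chr17:71616220-71616249, chr11:74898092-74898121 and chr11:72441355-72441376 on the plus strand, and that of Utp20 is chr10:88826765-88826789 on the minus strand. A match is a run of letters in this window and not a measured binding site.

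The libraries were checked before the members were compared. The tables give TPM, a level per transcript length scaled to a total of 1000000 in each library, which keeps no sequencing depth, so the depth is unknown. Between 14024 and 14970 symbols reached 1 TPM. The lowest counts were those of the 2 wild-type libraries, 14024 and 14409, against 14564 to 14970 in the 6 null libraries. What this difference does to the medians and shares of all genes against wild type was not tested. All 20 stem cell markers were at 1 TPM or more in both libraries of every genotype, with summed levels of 3382 and 3494 TPM in the triple null, 2903 and 3263 TPM in the Scribble null, 3060 and 3328 TPM in the Yap1 Taz null and 2854 and 2900 TPM in wild type. Of 36 markers of other marrow cells, 13 to 15 reached 1 TPM in both libraries of a genotype. The summed level of these 36 lay between 536 and 669 TPM. The neutrophil genes Ly6g and S100a8 were at 0 throughout, but other markers of the list were not low. Lyz2 ran from 176 to 292 TPM, Itga2b from 100 to 156 TPM and Nkg7 from 56.2 to 152 TPM. Cd68 ran from 17.4 to 46.1 TPM and Hbb-bt from 13.2 to 52.7 TPM. Whether these levels come from other cells was not tested. The integrin gene Itgam was called higher in the Scribble null than in wild type, and the cytotoxic granule gene Nkg7 lower in the Yap1 Taz null than in wild type. The stem cell marker Procr was called higher in the triple null than in the Yap1 Taz null, and Gfi1b lower in the Scribble null than in the Yap1 Taz null. The part of these 4 genes in the results was not tested. The targeted genes did not show the labelled losses. Scrib stood at 14.5 and 7.54 TPM in the triple null, 6.25 and 7.63 TPM in the Scribble null and 8.19 and 9.29 TPM in wild type, with log2 differences from wild type of 0.24 in the triple null and −0.30 in the Scribble null. Yap1 stood at 2.25 and 2.37 TPM in the triple null, 2.13 and 6.63 TPM in the Yap1 Taz null and 2.00 and 2.15 TPM in wild type, with differences of 0.11 and 0.67 in those nulls. Wwtr1, the gene of TAZ, stood at 1.92 and 0.775 TPM in the triple null, 1.09 and 1.15 TPM in the Yap1 Taz null and 0.730 and 1.19 TPM in wild type, with differences of 0.23 and 0.13. Thus 5 of these 6 differences lay above wild type, and 0 were called in either direction. In the Scribble null, whose label does not name Taz, Wwtr1 stood at 5.32 and 3.91 TPM. That was a log2 difference of 1.52 from wild type, which was not called. A whole-gene level cannot show the loss of exons, so every genotype named here, and each direction drawn between genotypes, rests on the labels. The Y-linked gene Eif2s3y stood at 4.16 and 4.63 TPM in the Yap1 Taz null against 45.8 to 64.1 TPM in the other 6 libraries, and sex and genotype cannot be told apart where those libraries enter. In sorted bulk cells, fewer cells of a type and less RNA per cell cannot be told apart either.

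All 36 members are protein-coding genes in the GENCODE M21 annotation of GRCm38 (mm10), and all passed the filter on low values. Npm1, which encodes the abundant nucleolar chaperone nucleophosmin, was the highest, with a median over the 8 libraries of 1804 TPM. It ranked above at least 99.4% of the genes tested in every library. Ncl, for the nucleolar RNA-binding protein nucleolin, followed at a median of 902 TPM, and Rrp12, an export and maturation factor of the small subunit, was the lowest at 9.33 TPM. The highest library exceeded the lowest by 1.25 times for Mybbp1a, a nucleolar regulator of transcription, and by 2.35 times for Nop16, a factor of large subunit assembly, with the other members in between. Together the members made up 0.603% and 0.641% of the triple null libraries, 0.608% and 0.548% of the Scribble null, 0.708% and 0.718% of the Yap1 Taz null and 0.667% and 0.677% of wild type. Both Yap1 Taz null libraries were thus above both wild-type ones in summed level, and the other 4 null libraries below them. Npm1 and Ncl weigh heavily in that sum. Without them the other 34 members summed to 3615 and 3807 TPM in the triple null, 3641 and 3463 TPM in the Scribble null, 4161 and 4304 TPM in the Yap1 Taz null and 3802 and 3875 TPM in wild type, so that triple null 2 lay between the wild-type libraries.

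**Figure D1:**
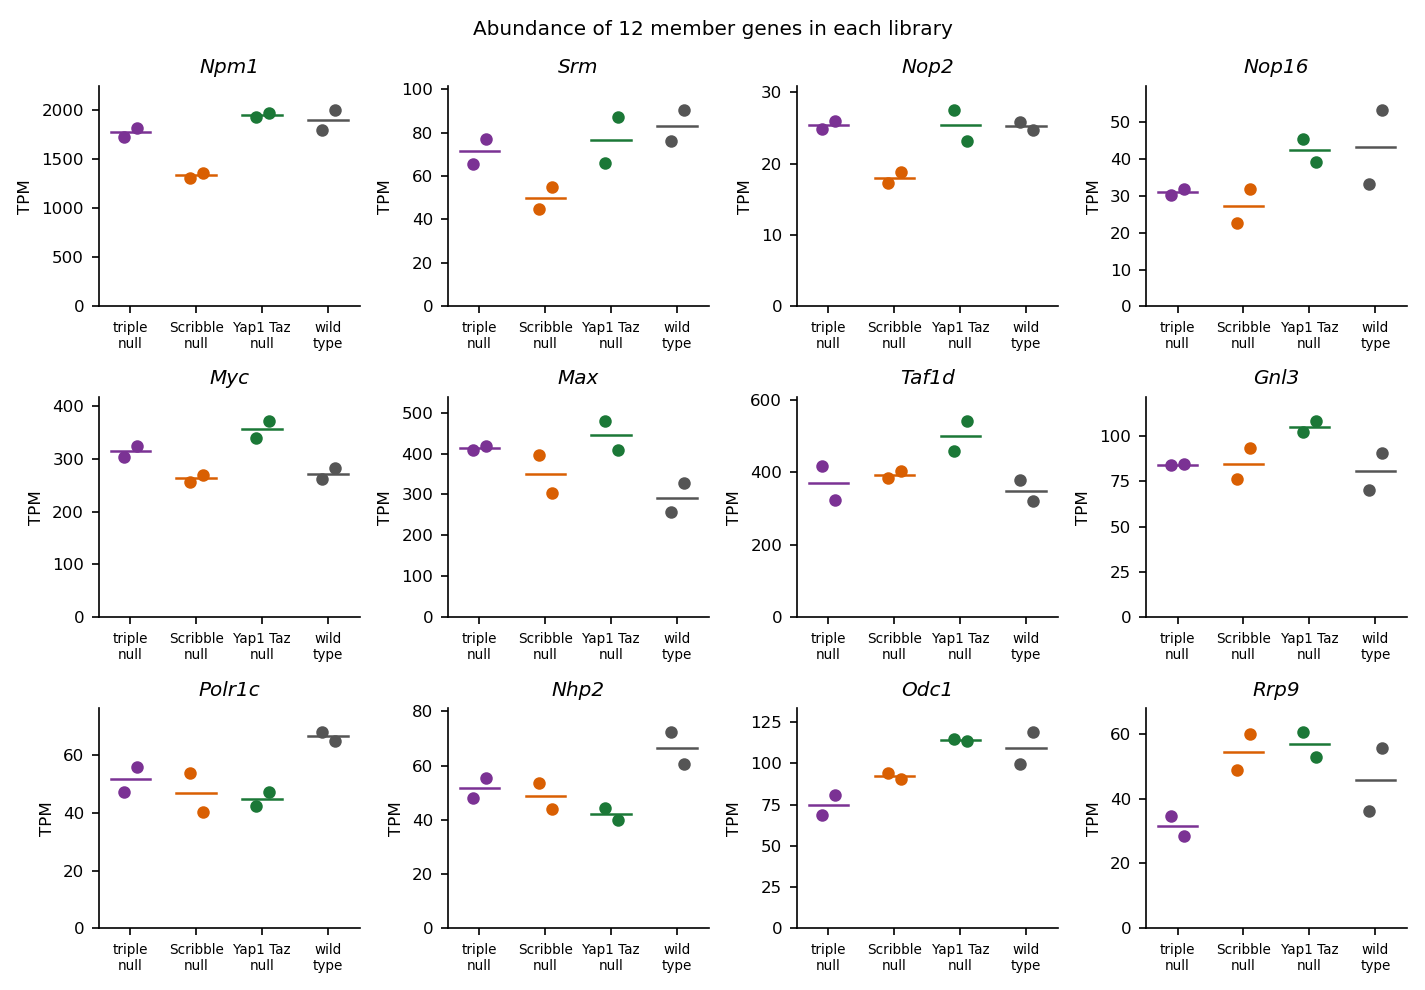
Level in TPM (vertical axes, linear and starting at 0) of 12 members in each library, by genotype (horizontal axes). Points are single libraries and bars the mean of 2. Npm1, Srm and Nop2 are lowest in the Scribble null, Odc1 and Rrp9 in the triple null, and Polr1c and Nhp2 are highest in both wild-type libraries.

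No member passed an adjusted p of 0.05 in any of the 7 comparisons, each tested with limma on log2(TPM + 1) and adjusted by the Benjamini-Hochberg method over all 16064 genes that reached 1 TPM in at least 2 libraries. Against wild type, that threshold called 0.224% of all genes higher and 0.355% lower in the triple null, 0.591% higher and 0.71% lower in the Scribble null, and 0.473% higher and 0.517% lower in the Yap1 Taz null. Between null genotypes it called 0.112% higher and 0.0996% lower in the triple null than in the Scribble null. It called 0.0685% higher and 0.112% lower in the triple null than in the Yap1 Taz null, and 0.112% higher and 0.174% lower in the Scribble null than in the Yap1 Taz null. Additivity, the last comparison, asked whether the triple null equals the Scribble and Yap1 Taz changes added up, and that departure was called above 0 for 0.374% and below 0 for 0.261%. In each of the 3 comparisons with wild type, 33 of the 36 members had a 95% interval that lay inside 1 unit of log2 in either direction, so a doubling or halving on this scale lay outside it. Unadjusted p-values describe single genes here and make no call.

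Among the genes of the MYC network, Myc itself (mm10 chromosome 15, 61985391 to 61990374, plus strand) ranked 8 of 36 by its median TPM. Myc stood at 304 and 323 TPM in the triple null, 256 and 270 TPM in the Scribble null, 339 and 372 TPM in the Yap1 Taz null and 261 and 281 TPM in wild type. Both triple null and both Yap1 Taz null libraries lay above all libraries of the other 2 genotypes. The log2 difference from wild type was 0.21 in the triple null (adjusted p 0.547), −0.05 in the Scribble null and 0.39 (SE 0.113, adjusted p 0.193) in the Yap1 Taz null. Myc was lower in the Scribble null than in the Yap1 Taz null by a log2 difference of −0.43 (adjusted p 0.220). Max, the obligate partner of MYC, stood at 408 and 418 TPM in the triple null, 397 and 304 TPM in the Scribble null, 480 and 409 TPM in the Yap1 Taz null and 256 and 329 TPM in wild type. It was above wild type in both the triple null, by 0.51 (adjusted p 0.352), and the Yap1 Taz null, by 0.61 (adjusted p 0.186), while the Scribble null overlapped wild type. Mycn, the paralogue first known from neuroblastoma, showed the other order in the Yap1 Taz null. It stood at 42.7 and 48.6 TPM in the triple null, 46.2 and 52.4 TPM in the Scribble null, 35.0 and 41.0 TPM in the Yap1 Taz null and 52.1 and 49.9 TPM in wild type. Its difference between the Yap1 Taz null and wild type was −0.42 (adjusted p 0.314). Mxd4, whose protein pairs with MAX and represses, stood at 35.0 and 34.8 TPM in the triple null, 30.6 and 30.3 TPM in the Scribble null, 51.1 and 32.1 TPM in the Yap1 Taz null and 41.1 and 32.7 TPM in wild type. Of these, the Scribble null alone did not overlap wild type, and its 95% interval held 0.

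Among the genes of RNA polymerase I, 2 stood apart from the rest. Polr1c, a subunit shared by polymerases I and III, stood at 47.0 and 56.0 TPM in the triple null, 53.8 and 40.1 TPM in the Scribble null, 42.4 and 47.3 TPM in the Yap1 Taz null and 68.1 and 64.8 TPM in wild type. All 6 null libraries were below both wild-type ones, with log2 differences of −0.37 (adjusted p 0.530), −0.51 (adjusted p 0.215) and −0.56 (adjusted p 0.248) for the triple, Scribble and Yap1 Taz nulls. Taf1d, a TATA-binding protein associated factor of the polymerase I initiation complex, stood at 417 and 324 TPM in the triple null, 384 and 403 TPM in the Scribble null, 457 and 542 TPM in the Yap1 Taz null and 379 and 320 TPM in wild type. It was highest in the Yap1 Taz null, by 0.51 over wild type (adjusted p 0.214), and the triple null overlapped wild type. The gene holds 8 snoRNA genes within its bounds, and whether reads of those count toward its level is not given in the sources used here. The 2 large catalytic subunits gave no such pattern: Polr1a ranged from 36.1 to 73.0 TPM and Polr1b from 19.4 to 33.0 TPM, and for both genes the values of each null genotype overlapped those of wild type.

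Several snoRNP genes had lower values in the null libraries than in wild type. Nhp2, a core protein of the H/ACA particles that guide pseudouridylation, stood at 47.9 and 55.4 TPM in the triple null, 53.7 and 43.9 TPM in the Scribble null, 44.3 and 39.8 TPM in the Yap1 Taz null and 72.5 and 60.7 TPM in wild type. All null libraries lay below both wild-type ones, and the difference was −0.65 (SE 0.179, adjusted p 0.177) in the Yap1 Taz null, −0.44 (adjusted p 0.246) in the Scribble null and −0.36 (adjusted p 0.519) in the triple null. Fbl, the methyltransferase of the box C/D particles, and Nolc1, a chaperone of snoRNPs, also had all null libraries below both wild-type ones. Fbl stood at 207 and 188 TPM in the triple null, 230 and 172 TPM in the Scribble null, 238 and 222 TPM in the Yap1 Taz null and 241 and 239 TPM in wild type. Nolc1 stood at 25.2 and 31.7 TPM in the triple null, 27.8 and 24.5 TPM in the Scribble null, 27.6 and 31.8 TPM in the Yap1 Taz null and 32.6 and 41.1 TPM in wild type. With Pes1, a large subunit factor, and Polr1c, these made 5 of 36 members (13.9%) with all 6 null libraries below both wild-type libraries, a pattern of 4.87% of all genes tested. No member was higher in all 6, against 13.1% of all genes. The other snoRNP genes are the box C/D core proteins Nop56 and Nop58, the H/ACA pseudouridine synthase Dkc1 and the H/ACA protein Gar1. Their 95% intervals against wild type held 0 in each genotype, with log2 differences between −0.34 for Gar1 in the Scribble null and 0.28 for Nop58 in the Yap1 Taz null.

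Among the 6 genes of small subunit processing, Rrp9 encodes a protein of the U3 snoRNP, which guides the early cuts of the precursor. Rrp9 (chromosome 9, 106475963 to 106485424, plus strand) stood at 34.5 and 28.4 TPM in the triple null, 48.9 and 60.1 TPM in the Scribble null, 60.7 and 52.9 TPM in the Yap1 Taz null and 36.04 and 55.7 TPM in wild type. Both triple null libraries were the lowest of the 8, though the wild-type libraries were themselves far apart. The log2 difference of the triple null was −0.77 (95% interval −1.32 to −0.23, adjusted p 0.366) from the Scribble null, −0.84 (−1.38 to −0.29, adjusted p 0.363) from the Yap1 Taz null and −0.51 (adjusted p 0.490) from wild type. Rrp12 had 7.30 and 7.51 TPM in the triple null, 11.3 and 11.02 TPM in the Scribble null, 8.74 and 14.7 TPM in the Yap1 Taz null and 7.88 and 9.91 TPM in wild type, with the triple null again lowest. Utp20, a very large scaffold of the processome, stood at 28.9 and 17.7 TPM in the triple null, 30.4 and 31.8 TPM in the Scribble null, 29.9 and 27.4 TPM in the Yap1 Taz null and 25.1 and 22.9 TPM in wild type. Nop14, Wdr43 and Tsr1, which act in the processome or in late maturation of the small subunit, had log2 differences from wild type between −0.14 and 0.22, and the triple null stood 0.04, −0.04 and 0.17 from the Scribble null for these 3 genes.

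Among the large subunit genes, Nop2 had its lowest values in the Scribble null. Nop2, a methyltransferase of the large ribosomal RNA whose promoter holds an E-box, stood at 24.8 and 26.0 TPM in the triple null, 17.3 and 18.8 TPM in the Scribble null, 27.6 and 23.2 TPM in the Yap1 Taz null and 25.9 and 24.7 TPM in wild type. The Scribble null libraries were below the other 6, by −0.47 against wild type (adjusted p 0.240) and −0.47 against the Yap1 Taz null (adjusted p 0.438), and the triple null was above the Scribble null by 0.47 (adjusted p 0.495). Nop16 stood at 30.3 and 32.0 TPM in the triple null, 22.7 and 32.0 TPM in the Scribble null, 45.6 and 39.3 TPM in the Yap1 Taz null and 33.3 and 53.5 TPM in wild type, and its difference between the Scribble null and wild type was −0.63 (adjusted p 0.260). Bop1, Pes1 and Wdr12 form the PeBoW complex, which processes the precursor of the large subunit RNA, and did not follow one order. Bop1 stood at 11.2 and 10.3 TPM in the triple null, 9.77 and 11.7 TPM in the Scribble null, 17.7 and 15.0 TPM in the Yap1 Taz null and 12.6 and 14.6 TPM in wild type. Pes1 stood at 19.1 and 22.2 TPM in the triple null, 17.5 and 20.8 TPM in the Scribble null, 22.8 and 18.9 TPM in the Yap1 Taz null and 27.3 and 24.4 TPM in wild type. Wdr12 was 36.5 and 41.8 TPM in the triple null, 43.5 and 56.9 TPM in the Scribble null, 41.7 and 59.2 TPM in the Yap1 Taz null and 40.0 and 43.7 TPM in wild type. Bop1 was thus highest in the Yap1 Taz null and Pes1 in wild type, while for Wdr12 each null genotype overlapped wild type. Gnl3, which encodes nucleostemin, a nucleolar GTPase abundant in stem cells, stood at 84.1 and 84.2 TPM in the triple null, 76.2 and 93.2 TPM in the Scribble null, 102 and 108 TPM in the Yap1 Taz null and 70.3 and 90.4 TPM in wild type, a difference of 0.39 between the Yap1 Taz null and wild type (adjusted p 0.344). The assembly factors Nip7, Rrs1 and Noc2l and the RNA helicase Ddx21 had 95% intervals against wild type that held 0 in each genotype.

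Npm1 (chromosome 11, 33152287 to 33163206, minus strand) gave the smallest p of all members. It stood at 1720 and 1818 TPM in the triple null, 1310 and 1357 TPM in the Scribble null, 1929 and 1964 TPM in the Yap1 Taz null and 1790 and 2001 TPM in wild type. Both Scribble null libraries lay well below the other 6, and the triple and Yap1 Taz nulls overlapped wild type. The log2 difference from wild type in the Scribble null was −0.50 (SE 0.0993, 95% interval −0.73 to −0.28), with an unadjusted p of 0.000947 and an adjusted p of 0.0596, just short of the threshold. It passed with a minimum of 5 TPM (adjusted p 0.0406) and with median-ratio scaling (−0.66, adjusted p 0.0220), and over all 18 alternatives the adjusted p ran from 0.0220 to 0.260. Npm1 was also lower in the Scribble null than in the Yap1 Taz null, by −0.55 (adjusted p 0.0910), and higher in the triple null than in the Scribble null, by 0.41 (adjusted p 0.269). Ncl stood at 693 and 790 TPM in the triple null, 1131 and 656 TPM in the Scribble null, 994 and 907 TPM in the Yap1 Taz null and 1078 and 898 TPM in wild type, so that the Scribble null held both its highest and its lowest value. Mybbp1a, with an E-box just after its start, had log2 differences from wild type between −0.07 and 0.10.

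The polyamine genes are textbook MYC targets, and their products make the small cations that bind RNA. Srm (chromosome 4, 148591503 to 148594993, plus strand), spermidine synthase, stood at 65.6 and 77.0 TPM in the triple null, 45.0 and 55.0 TPM in the Scribble null, 65.9 and 87.3 TPM in the Yap1 Taz null and 75.9 and 90.6 TPM in wild type. The Scribble null libraries were the 2 lowest, with a log2 difference from wild type of −0.73 (SE 0.197, 95% interval −1.18 to −0.27, adjusted p 0.122), the largest in size of any member in a comparison with wild type. Odc1 (chromosome 12, 17544794 to 17551505, plus strand), ornithine decarboxylase, the rate-limiting enzyme of the pathway, stood at 68.5 and 81.1 TPM in the triple null, 94.4 and 90.5 TPM in the Scribble null, 115 and 114 TPM in the Yap1 Taz null and 99.7 and 119 TPM in wild type. The triple null was lowest here, by −0.54 (SE 0.150, adjusted p 0.235) against wild type and −0.61 (adjusted p 0.260) against the Yap1 Taz null. The 2 enzymes thus had their lowest libraries in different genotypes.

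**Figure D2:**
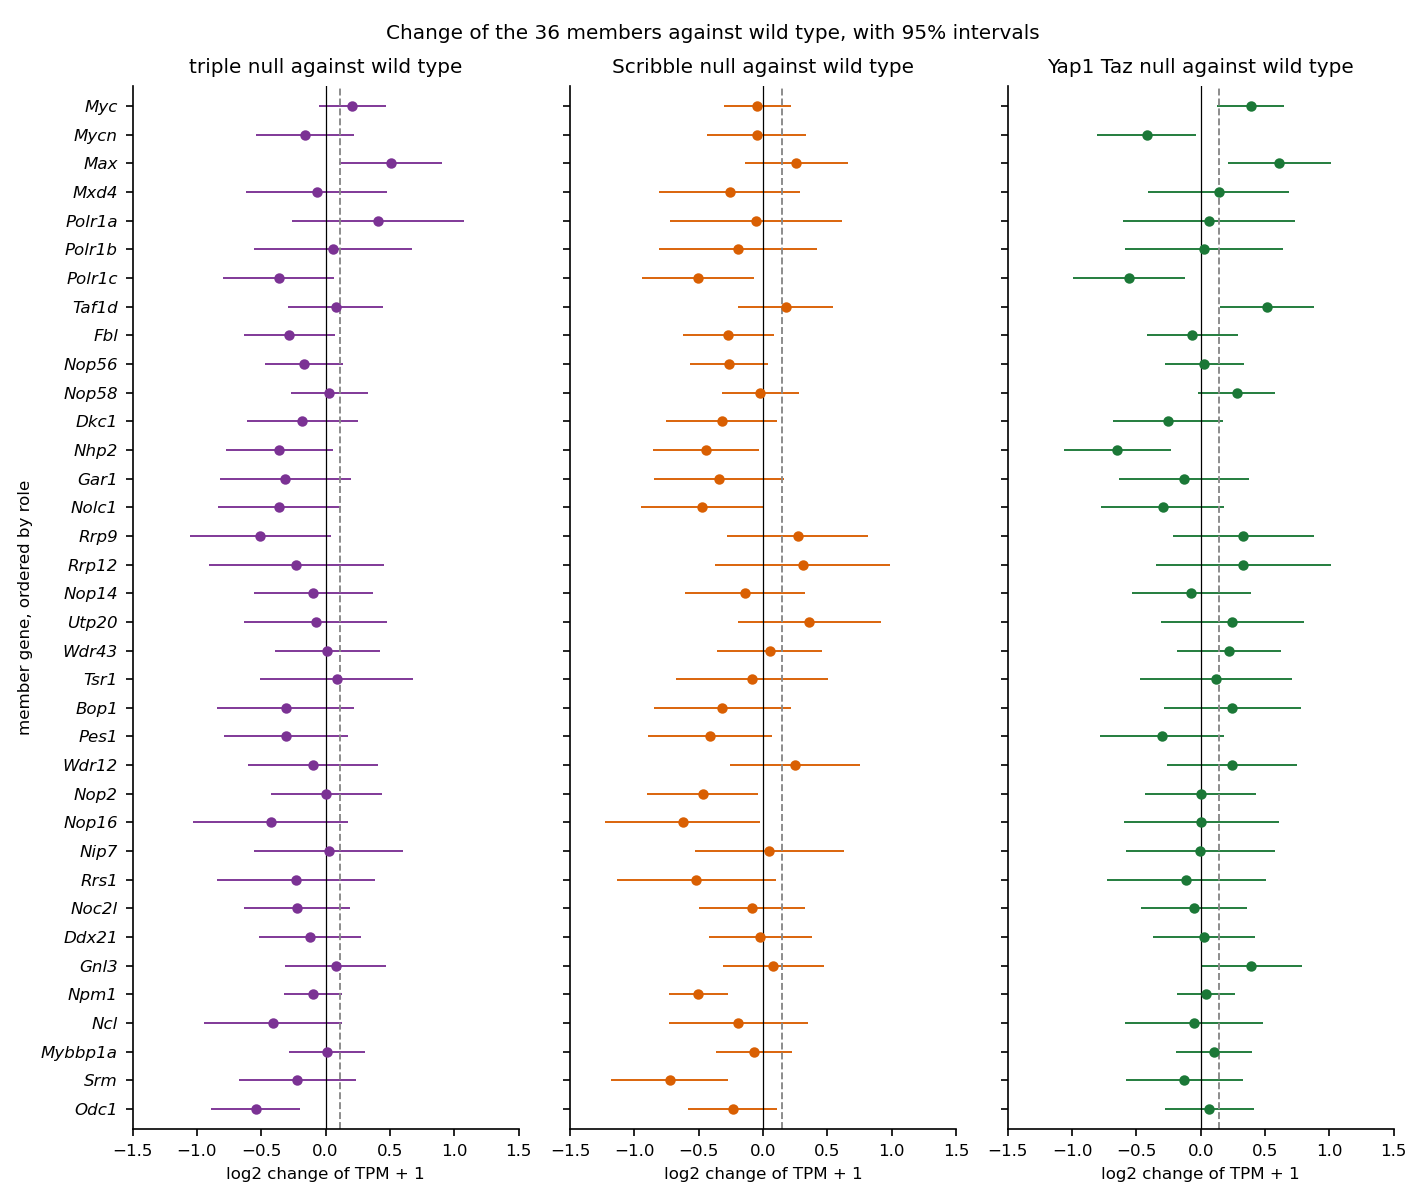
Log2 change of TPM + 1 against wild type (horizontal axis) for the 36 members in order of role (vertical axis), for the triple, Scribble and Yap1 Taz nulls from left to right. Points are fitted changes from 2 libraries per genotype, lines their 95% intervals, and the dashed line the median of all genes tested. Intervals that leave out 0 include those of Npm1 and Srm in the Scribble null, Max and Myc in the Yap1 Taz null, and Max and Odc1 in the triple null.

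In the triple null against wild type, the members lay below the bulk of genes. Their median log2 change was −0.14, against 0.12 for all genes tested, and 24 of 36 were below 0 (37.0% of all genes). Groups did not overlap for 2 members that were higher, Max and Myc (30.9% of all genes were so), and for 13 that were lower (14.2%). At an unadjusted p under 0.05 there was 1 member higher, Max (7.5% of all genes), and 1 lower, Odc1 (3.45%). By role the medians were −0.28 for the snoRNP genes, −0.17 for the large subunit, −0.09 for the small subunit and 0.07 for both the MYC network and RNA polymerase I. The median of the members was −0.070 without triple null 1 and −0.094 without wild type 2.

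In the Scribble null most members lay below wild type. The median of the members was −0.17, against 0.14 for all genes, with 27 of 36 below 0 (37.5% of all genes). An unadjusted p under 0.05 was reached by 6 members that were lower (6.16% of all genes), which were Npm1, Srm, Polr1c, Nop2, Nhp2 and Nop16, and by 0 that were higher (12.0%). Groups did not overlap for 16 members that were lower (15.7% of all genes) and for 3 that were higher (33.2%), which were Rrp12, Taf1d and Utp20. All 7 snoRNP genes were below 0, with a median of −0.32, and the 10 large subunit genes had a median of −0.20, whereas the 6 small subunit genes had a median of 0.16, close to that of all genes. The lists of other genes given further below did not repeat these medians. They had −0.13 for 13 genes of snoRNP assembly, −0.0023 for 57 of large subunit assembly and −0.014 for 48 of the small subunit processome. Scaling each library by its median ratio moved the median of all genes to 0.0093 and that of the members to −0.32, so that the distance between them was −0.31 as reported and −0.33 after scaling. Such scaling shifts all genes of a library nearly alike, so it could hardly change that distance and is no check on it. That distance was −0.20 with quantile normalization and −0.25 in the table of the whole series, where the member median was −0.050.

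In the Yap1 Taz null the members lay on both sides of wild type. Their median was 0.03, against 0.14 for all genes, and 14 of 36 were below 0 (36.1% of all genes). An unadjusted p under 0.05 was reached by Max, Myc, Taf1d and Gnl3, which makes 4 that were higher (10.1% of all genes), and by Nhp2, Polr1c and Mycn, which makes 3 that were lower (4.2%). Groups did not overlap for 8 that were higher (32.0% of all genes) and 6 that were lower (14.5%). The MYC network and the small subunit genes had medians of 0.26 and 0.23, and the snoRNP genes one of −0.13. The sign of the median rests on the scaling and on single libraries: it was −0.13 with median-ratio scaling, 0.099 without wild type 2 and −0.0064 without Yap1 Taz null 2.

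**Figure D3:**
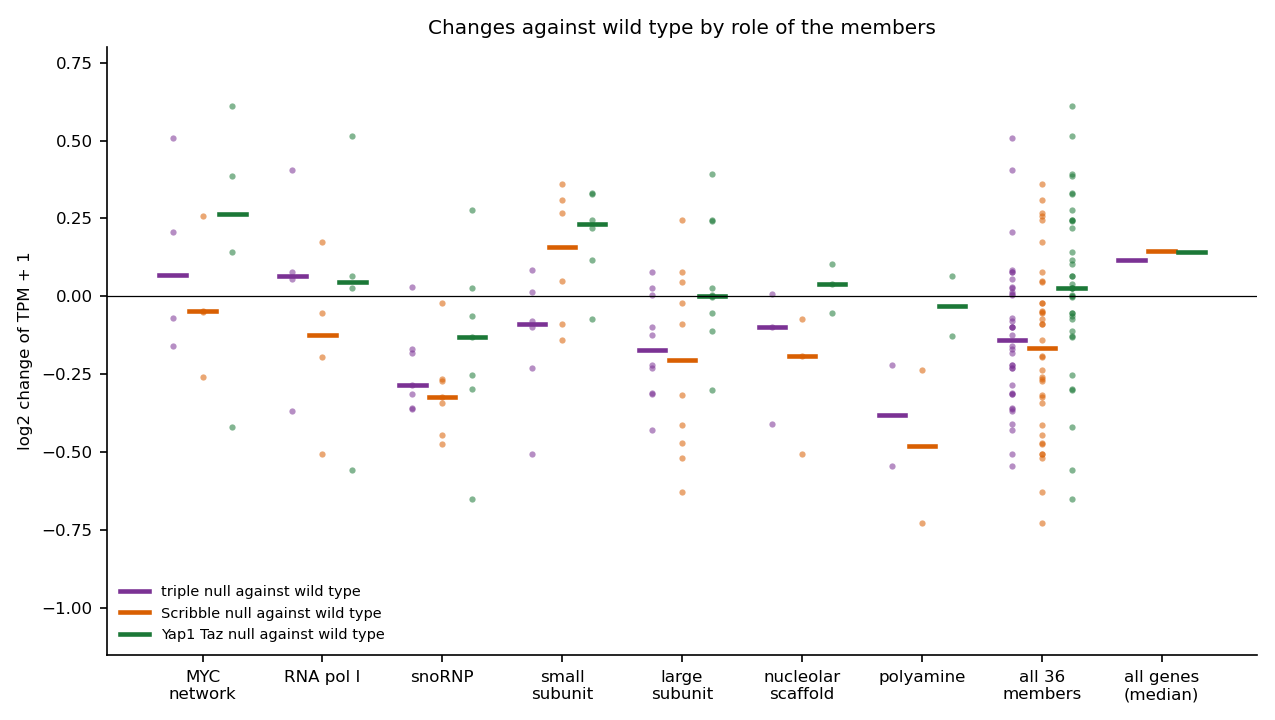
Log2 change of TPM + 1 against wild type (vertical axis) by role of the members (horizontal axis), for the triple null, the Scribble null and the Yap1 Taz null from left to right within each role. Points are genes, bars medians, and the last position gives the median of all genes tested, which is 0.12, 0.14 and 0.14. The snoRNP medians of −0.28, −0.32 and −0.13 lie below it in all 3 genotypes.

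The null genotypes were then set against each other, which leaves wild type out. The triple null was above the Scribble null for Npm1, Srm and Nop2, 3 members at an unadjusted p under 0.05 (4.56% of all genes were higher at that level), and below it for Rrp9, 1 member (4.59%). Groups did not overlap for 9 members that were higher (19.0% of all genes) and 5 that were lower (21.1%), 14 of 36 were below 0 (51.8%), and the medians were 0.07 for the members and −0.01 for all genes. The member median was 0.012 without triple null 2. Against the Yap1 Taz null, the triple null was below for 4 members, Odc1, Rrp9, Taf1d and Bop1 (4.58% of all genes), and above for 0 (3.83%). There, 14 members were lower without overlap (21.3% of all genes) and 2 higher (18.7%), 28 of 36 were below 0 (52.4%), among them all 6 small subunit genes, and the medians were −0.16 for the members and −0.02 for all genes. Without triple null 1 the member median was −0.093. The Scribble null against the Yap1 Taz null gave 6 members lower, Npm1, Myc, Srm, Nop2, Bop1 and Nop16 (5.6% of all genes), and 0 higher (4.81%). In that comparison 30 of 36 were below 0 (50.6% of all genes), 16 were lower without overlap (19.8%) and 2 higher (19.0%), and the medians were −0.19 for the members and −0.0041 for all genes. These comparisons share libraries with each other and with those against wild type.

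Whether the triple null equals the sum of the other 2 changes was asked by subtracting the change of the Yap1 Taz null from wild type from that of the triple null from the Scribble null. The departure of the members had a median of 0.05, against −0.15 for all genes, and 17 of 36 were below 0 (60.2% of all genes). With quantile normalization the medians lay closer together, at 0.033 for the members and −0.010 for all genes. Nhp2 (0.73, SE 0.254, adjusted p 0.248), Polr1c (0.70, adjusted p 0.290) and Npm1 (0.37, adjusted p 0.293) were above 0 at an unadjusted p under 0.05, 3 members against 5.02% of all genes. Rrp9 (−1.10, SE 0.336, 95% interval −1.88 to −0.33, adjusted p 0.201) and Taf1d (−0.61, adjusted p 0.275) were below 0, 2 members against 9.5%. For Nhp2 and Polr1c the values given above show the form of this: each null genotype was lower than wild type, and the triple null was no lower than the other 2. For Rrp9 both the Scribble and the Yap1 Taz null had means above wild type (54.5 ± 7.92 and 56.8 ± 5.50 TPM, SD, n = 2 each) and the triple null one below it (31.4 ± 4.34 TPM against 45.9 ± 13.9 TPM in wild type, SD, n = 2 each). The sign of the member median turned in the table of the whole series (−0.12), without triple null 2 (−0.073), Scribble null 2 (−0.012), Yap1 Taz null 1 (−0.0081) and wild type 1 (−0.014).

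**Figure D4:**
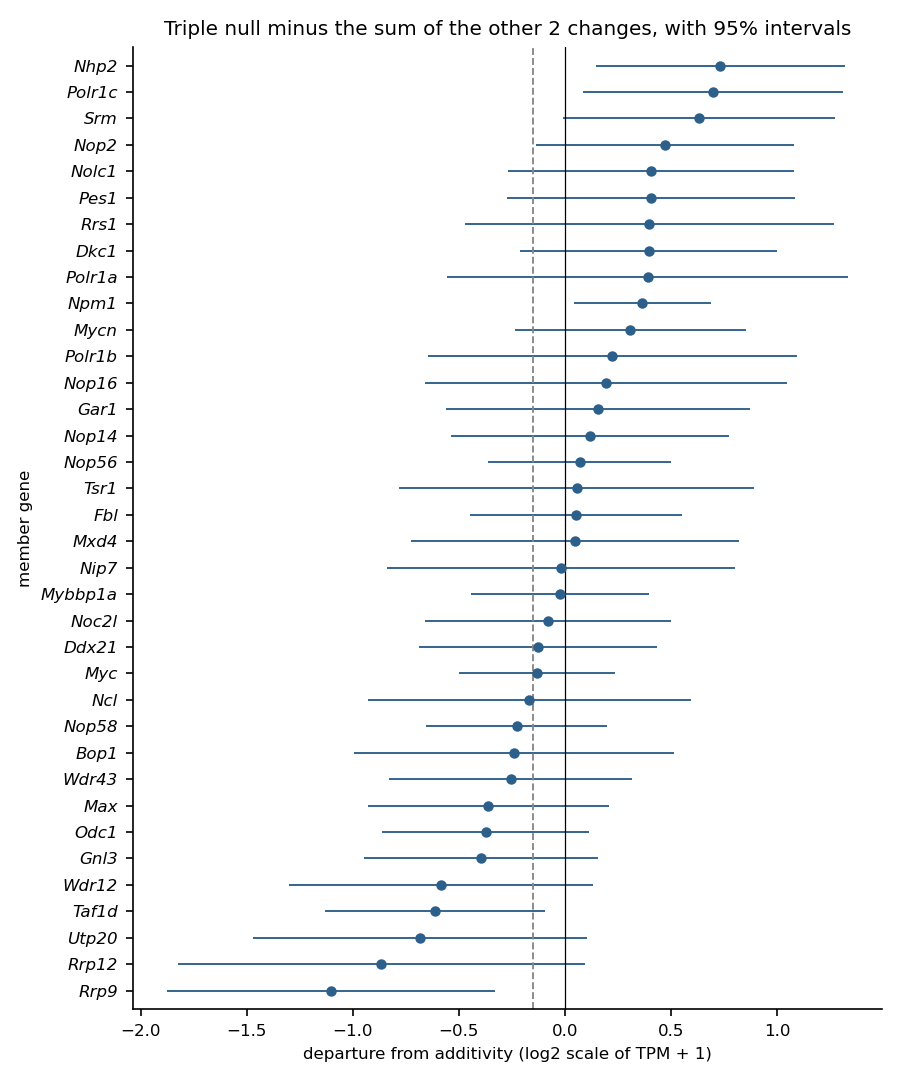
Triple null change minus the added changes of the Scribble null and the Yap1 Taz null, all against wild type, on the log2 scale of TPM + 1 (horizontal axis) for the 36 members, sorted by value (vertical axis). Points are fitted values, lines 95% intervals, and the dashed line the median of all genes tested, −0.15. Nhp2 at 0.73 and Rrp9 at −1.10 stand at the ends.

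The E-box and the snoRNA genes within a member's bounds were set beside the changes of the members. Neither was itself a rule of the choice. Roles tied to MYC were, so the E-box is not independent of it. The 8 members with an E-box in the promoter window had a median change of 0.0074 in the triple null, −0.080 in the Scribble null and 0.13 in the Yap1 Taz null, all against wild type. The 21 members with a promoter and no E-box had medians of −0.17, −0.14 and 0.0045 in the same order. The ranges overlapped: among the 8, Max stood at 0.61 and Pes1 at −0.30 in the Yap1 Taz null, and Nop2 at −0.47 in the Scribble null. The 9 members whose bounds hold snoRNA genes, which are Taf1d, Nop56, Nop58, Dkc1, Wdr43, Tsr1, Gnl3, Ncl and Odc1, had medians against wild type of 0.013, −0.088 and 0.12 in the triple, Scribble and Yap1 Taz nulls. The other 27 had medians of −0.16, −0.19 and 0.0045. In the Scribble null against the Yap1 Taz null, all 9 snoRNA hosts were below 0, with a median of −0.29, as were 21 of the other 27, with a median of −0.17.

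Further genes of these pathways were read from lists that leave out the members. These lists too were chosen with earlier results of these data known, so they are no independent check on the members. Of 18 tested genes of the RNA polymerase I machinery, 13 of snoRNP assembly, 48 of the small subunit processome, 57 of large subunit assembly, 18 of the MYC, MAX and MXD network and 37 MYC targets outside the nucleolus, 0 were called in any of the 7 comparisons. Medians against wild type are given in the order triple, Scribble and Yap1 Taz null. They were −0.012, 0.014 and 0.14 for the RNA polymerase I machinery and −0.074, −0.13 and 0.066 for snoRNP assembly. For large subunit assembly they were 0.018, −0.0023 and 0.040. Against wild type the targets outside the nucleolus had medians of −0.16 in the triple null, −0.24 in the Scribble null and −0.10 in the Yap1 Taz null. In the Scribble null 12 of the 37 (32.4%) were lower at an unadjusted p under 0.05 and 0 higher, where 6.16% and 12.0% of all genes were. In the departure from additivity 10 (27.0%) were above 0 and 1 (2.7%) below, where 5.02% and 9.5% of all genes were. The Scribble null libraries enter that departure with a minus sign, so it is not a separate result. Nme2, a nucleoside diphosphate kinase of that list, stood at 119 and 121 TPM in the triple null, 113 and 111 TPM in the Scribble null, 95.1 and 112 TPM in the Yap1 Taz null and 170 and 165 TPM in wild type, with an adjusted p of 0.0599 for the Yap1 Taz null against wild type. Ppat, which opens purine synthesis, stood at 51.1 and 48.7 TPM in the triple null, 31.2 and 32.8 TPM in the Scribble null, 42.3 and 52.4 TPM in the Yap1 Taz null and 58.8 and 53.4 TPM in wild type, so the Scribble null was lowest, as for Npm1 and Srm. Of the 48 small subunit processome genes, 5 (10.4%) were higher and 3 (6.25%) lower at that level in the Scribble null, close to the 12.0% and 6.16% of all genes, and their median was −0.01. In the triple null 2 (4.17%) were higher and 0 lower, and in the Yap1 Taz null 4 (8.33%) were higher and 1 (2.08%) lower. The 2 with the smallest p were higher than wild type. Wbscr22, a methyltransferase of the small subunit RNA, stood at 216 and 181 TPM in the triple null, 208 and 213 TPM in the Scribble null, 187 and 188 TPM in the Yap1 Taz null and 92.6 and 139.9 TPM in wild type, with an adjusted p of 0.0811 for the Scribble null. Ddx47, an RNA helicase of the same list, stood at 97.2 and 108 TPM in the triple null, 106 and 108 TPM in the Scribble null, 88.0 and 96.3 TPM in the Yap1 Taz null and 72.2 and 74.8 TPM in wild type, and again every null library was above both wild-type ones.

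Of each remaining list the 2 genes with the smallest p against wild type are named, and counts are at an unadjusted p under 0.05. At that level 7.5% of all genes were higher and 3.45% lower in the triple null, 12.0% and 6.16% in the Scribble null, and 10.1% and 4.2% in the Yap1 Taz null. Of the 18 genes of the RNA polymerase I machinery, 4 (22.2%) were higher and 1 (5.56%) lower in the triple null, 2 (11.1%) and 2 (11.1%) in the Scribble null, and 2 (11.1%) and 0 in the Yap1 Taz null. Ttf1, a terminator of polymerase I, had 33.5 and 32.4 TPM in the triple null, 56.4 and 42.4 TPM in the Scribble null, 25.5 and 41.4 TPM in the Yap1 Taz null and 23.8 and 29.6 TPM in wild type, and Top2a, a DNA topoisomerase, had 151 and 161 TPM in the triple null, 146 and 144 TPM in the Scribble null, 196 and 183 TPM in the Yap1 Taz null and 178 and 200 TPM in wild type. Ttf1 was thus highest and Top2a lowest in the Scribble null. Of the 13 snoRNP assembly genes, 0 were higher and 1 (7.69%) lower in the Scribble null, and none passed that level in the other 2 genotypes. Of the 57 large subunit assembly genes, 1 (1.75%) was higher and 1 (1.75%) lower in the triple null, 0 and 3 (5.26%) in the Scribble null, and 4 (7.02%) and 1 (1.75%) in the Yap1 Taz null. Snu13, a box C/D protein, had 146 and 155 TPM in the triple null, 120 and 149 TPM in the Scribble null, 185 and 164 TPM in the Yap1 Taz null and 189 and 174 TPM in wild type, and Shq1, an assembly factor of H/ACA particles, had 8.45 and 13.0 TPM in the triple null, 18.5 and 11.5 TPM in the Scribble null, 12.5 and 10.7 TPM in the Yap1 Taz null and 20.7 and 14.4 TPM in wild type. Pak1ip1 and Surf6, both of large subunit assembly, lay on opposite sides of wild type in all 6 null libraries. Pak1ip1 had 28.3 and 25.5 TPM in the triple null, 19.9 and 17.5 TPM in the Scribble null, 27.6 and 19.9 TPM in the Yap1 Taz null and 39.9 and 31.6 TPM in wild type, and Surf6 had 32.1 and 27.5 TPM in the triple null, 27.1 and 34.2 TPM in the Scribble null, 36.6 and 40.6 TPM in the Yap1 Taz null and 20.5 and 24.1 TPM in wild type. The MYC, MAX and MXD network had a median of 0.07 in the triple null, 0.21 in the Scribble null and 0.22 in the Yap1 Taz null. Of its 18 genes, 1 (5.56%) was higher and 0 lower in the triple null, 2 (11.1%) and 1 (5.56%) in the Scribble null, and 4 (22.2%) and 1 (5.56%) in the Yap1 Taz null. Zbtb17 (MIZ1, a partner through which MYC represses) stood at 13.2 and 11.1 TPM in the triple null, 10.5 and 17.0 TPM in the Scribble null, 24.1 and 22.0 TPM in the Yap1 Taz null and 12.8 and 8.10 TPM in wild type. Mga, a MAX partner, had 159 and 116 TPM in the triple null, 139 and 147 TPM in the Scribble null, 127 and 129 TPM in the Yap1 Taz null and 98.0 and 95.5 TPM in wild type. Of the 14 tested genes of the polyamine pathway, 2 (14.3%) were higher and 0 lower in each of the 3 null genotypes. Their medians were 0.18 in the triple null, −0.0053 in the Scribble null and 0.079 in the Yap1 Taz null. Among them, Amd2 was called higher in the triple null than in wild type, at 5.21 and 5.00 TPM against 0.0654 and 0.493 TPM (log2 change 2.27, adjusted p 0.0287). Amd2 is a near copy of Amd1, S-adenosylmethionine decarboxylase, over 99.5% of its length, and reads could go to either. The 2 genes summed to 63.6 and 56.4 TPM in the triple null and 52.4 and 50.9 TPM in wild type, so the value of Amd2 alone is uncertain.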

How the data were processed

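Per the labels' protocols, RNA of the sorted cells was purified on RNeasy columns, and its cDNA was amplified (Ovation RNA-Seq System) and tagmented (Nextera XT). The authors deposited 1 table per library of TPM per gene symbol, per the file headers. The submitters' processing notes name TopHat and the build mm10, while for the quantifier and its handling of shared reads a name or rule is not given in the sources used here. This unit, TPM, keeps no depth, and a larger share for one gene lowers all others. The authors also deposited a table of all libraries, whose unit the header does not name, and it was treated as a linear score and used only as an alternative. Its columns sum to 818363 to 888261, 27458 of its 28987 identifiers matched a symbol (94.7%), and 35 of 36 members were found.

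The test was limma 3.58.1 (R 4.3.3) on log2(TPM + 1), with a mean-variance trend, over genes that reached 1 TPM in 2 or more of the 8 libraries. A single model with 4 group means had 4 residual and 4.002 prior degrees of freedom. Fold changes on this scale understate those of low genes. P-values were adjusted over all genes by the Benjamini-Hochberg method, and an adjusted p under 0.05 was a call. The model was tested on simulated data. The members and all lists were chosen with earlier results of these data known. All members are named, and from each other list the genes called, or else up to 2 with the smallest p against wild type. Gene bounds are from GENCODE M21 (GRCm38, which is mm10), copies were sought with BLAST 2.17.0, and promoters are RefSeq sequence. The labels give each library an experiment number, 1 or 2, used here as the replicate number. Libraries of equal number showed no shared deviation, with correlations of same-numbered deviations between −0.0531 and 0.0257. These correlations cannot show whether such libraries were handled together. Alternatives were pseudocount, filter, scaling, model, block, source table, summed copies and each library left out.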

Additional observations from a re-analysis of the deposited data

How the results depend on the processing

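The count of members called stayed at 0 under the 18 alternatives except in the Scribble null against wild type, where it was 1 (Npm1) with a minimum of 5 TPM and 1 (Npm1) with median-ratio scaling. Medians of the members moved with scaling and with single libraries. With median-ratio scaling they were −0.32 in the Scribble null, −0.13 in the Yap1 Taz null and −0.27 in the triple null, all against wild type, and 0.23 for the departure from additivity. In the table of the whole series they were −0.050 in the Scribble null, 0.15 in the Yap1 Taz null and −0.12 for the departure. Leaving out each library in turn gave −0.22 to −0.14 for the Scribble null, −0.0064 to 0.099 for the Yap1 Taz null and −0.18 to −0.070 for the triple null against wild type. It gave 0.012 to 0.11 for the triple null against the Scribble null, −0.21 to −0.093 against the Yap1 Taz null, −0.28 to −0.19 for the Scribble null against the Yap1 Taz null, and −0.073 to 0.079 for the departure. The cause of these shifts was not tested. The distance of the member median from that of all genes kept its sign in every comparison under every alternative run: −0.38 to −0.20 (Scribble null), −0.13 to −0.03 (Yap1 Taz null), −0.29 to −0.18 (triple null), 0.02 to 0.12, −0.18 to −0.08 and −0.29 to −0.16 (triple against Scribble, triple against Yap1 Taz and Scribble against Yap1 Taz null) and 0.04 to 0.22 (departure). Several alternatives could not move this distance. These are the block, the fit without a trend, the fit to the groups compared alone and leaving out a library outside the comparison. Median-ratio scaling could hardly move it either. Median-ratio scaling moved the median of all genes by −0.14, −0.14 and −0.12 in the Scribble, Yap1 Taz and triple nulls against wild type, and with it the calls over all genes were 58 higher and 199 lower, 39 and 96, and 25 and 67, against 95 and 114, 76 and 83, and 36 and 57 as reported.

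With the replicate number as a block, 0 members were called in each comparison and the adjusted p of Npm1 in the Scribble null was 0.0863. The member medians were unchanged, as they must be in a balanced design, and the calls over all genes in the Scribble null were 34 higher and 76 lower. The copies planned for summing, near-identical over 80% of a member's length, numbered 0. An alternative chosen after seeing the data summed 12 processed pseudogenes matched over 80% of their own length with 7 members, and gave an adjusted p of 0.0590 for Npm1. A fit to the groups compared alone could not be made for the departure. TPM gives no depth, and 2 libraries per genotype limit what any single gene can show.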
